A study of Mus musculus with 8 samples.

Results

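The genes described here encode proteins of the extracellular matrix: collagens, laminin chains, the small proteoglycans decorin, biglycan and lumican, matrix glycoproteins, inhibitors of metalloproteinases and the growth factor BMP7. They were taken by gene symbol from the annotation of an Illumina mouse bead array, as every Col gene named by chain, every Lama, Lamb or Lamc gene, and 13 further named genes. The rule found 63 genes, measured by 143 probes, among 19057 genes with a symbol, and each gene was read from its probe of highest mean signal. Probes entered the test when 2 or more of the 8 non-normalized columns gave them a detection p-value below 0.01, and 30 of the 63 genes passed. The tested share was 47.6% of these genes and 49.6% of all genes on the array.

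Collagens are built from chains that wind into a triple helix. Some assemble into fibrils, some into the sheet-like networks of basement membranes, and some span the cell membrane. Laminins are trimers of alpha, beta and gamma chains that organise basement membranes. In the testis, the basement membrane and the peritubular cells around each tubule are the main sites of matrix, and round spermatids, which are haploid germ cells past meiosis, lie inside the tubule away from it. BMP7 is a secreted ligand of the TGF-beta superfamily that signals through receptor kinases and SMAD proteins.

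The RNA came from round spermatids separated by centrifugal elutriation from the testes of mice aged 8 weeks. There were 4 wildtype arrays without a transgene, 2 arrays labelled shSLX, for a hairpin RNA construct aimed at the Slx genes of the X chromosome, and 2 labelled shSLY, for one aimed at the Sly genes of the Y chromosome. The controls were matched in age and strain, per the series record, which names no strain. Which promoter drives the transgenes is not stated in the labels. Whether each sample is a different animal is not stated either, and the p-values therefore measure only the spread between samples, which may be technical. In such bulk samples, more cells of a type and more RNA per cell cannot be told apart.

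The names of the arrays are in doubt, and this touches every direction below and the slide term of the fit, which is read from the same labels. The array labels give 3 slides, with wildtype 2 on slide 1, wildtype 1 and the shSLY arrays on slide 2, and wildtype 3 and 4 and the shSLX arrays on slide 3. In the non-normalized table, 2 of 8 columns (wildtype 1 and 2) held the same ranks as their namesakes in the series matrix. Another 4 held the ranks of a different sample, and 2, those headed shSLX, matched no column of the series matrix. The series matrix profiles of shSLY 1 and 2 appear there under the names wildtype 3 and 4. Series matrix wildtype 3 and 4 were matched by no column, and so have no non-normalized intensity or detection p-value of their own. With the slide term, these 2 arrays are in effect the only controls of the shSLX comparison. The values below are those of the series matrix, named by sample accession. Sly, the target of the shSLY construct, lay at log2 signals of 10.04 to 10.52 in wildtype arrays, 10.56 and 10.26 in the arrays labelled shSLY, and 9.45 and 8.93 in those labelled shSLX. The lower Sly signal thus stood in the shSLX and not the shSLY arrays (log2 fold change -0.86 ± 0.17, limma adjusted p = 0.0377), against the label. The same 2 profiles are headed shSLY in the non-normalized table. Which names are right was not tested, and each group is called by its series matrix label throughout. The round spermatid genes fixed as markers had a summed signal of 157380 to 162042 in wildtype, 162938 to 164673 in shSLX and 152957 to 160897 in shSLY arrays.

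Many structural matrix genes of connective tissue were not detected in these cells. Of 11 fibrillar collagen genes, 4 were tested (Col2a1, Col5a1, Col24a1 and Col27a1), while Col1a1, Col1a2 and Col3a1, the chains of the fibrils of connective tissue, were detected in no column. Of the 9 laminin genes, Lama2, Lama5, Lamb2 and Lamb3 were tested. The gamma chain genes Lamc1 and Lamc3 were detected in no column, nor was the alpha chain gene Lama1. Fn1, which encodes fibronectin, Nid1, which encodes the basement membrane linker nidogen, Timp1 and Timp3 were likewise not detected.

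The counts by class of collagen were as follows, beside the 49.6% of all genes tested. Of 7 collagen genes whose products associate with fibrils, 5 were tested, among them Col9a1, Col9a3 and Col16a1. Of 11 genes for basement membrane collagens and related chains, 4 were tested: Col4a2, Col4a4, Col8a1 and Col18a1. All 3 proteoglycan genes were tested, and both Dcn and Lum were detected in all 8 columns. The 33 genes not tested had deposited intensities of 54.6 to 112 on the 8 arrays, where the array medians were 73.6 to 73.7, and no value is given for them beyond that. In all, 15 of the 63 genes were detected in every column and 30 in none.

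**Figure D1:**
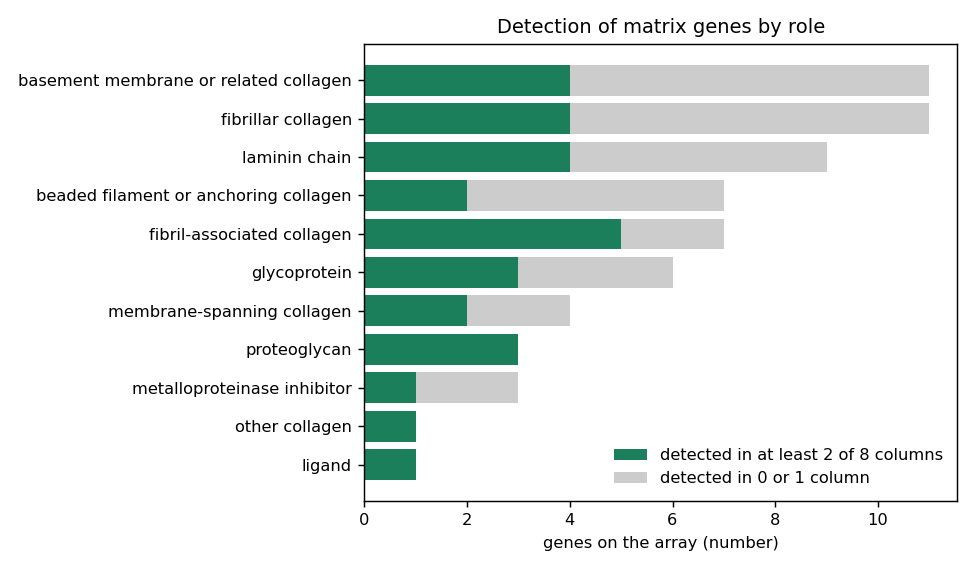
Number of matrix genes on the array in each role, split into genes detected in 2 or more of the 8 non-normalized columns (green) and genes detected in 0 or 1 column (grey). All 3 proteoglycan genes were tested, against 4 of 11 fibrillar collagen genes and 4 of 9 laminin genes.

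For the genes that changed, promoter sequence in the RefSeq table of build GRCm38.p6 covered Col4a2 and Col23a1. Each window runs from 250 bases before to 50 bases after the annotated start. The window of Col4a1 is shown too, because Col4a1 and Col4a2 encode the partner chains of collagen IV and lie head to head, with annotated starts 21 bases apart on chromosome 8. In the first pair of sequences, capitals mark the 78 bases that the Col4a2 and Col4a1 windows share, each read on its own strand. In the third, capitals mark CG pairs.
Col4a2, chr8:11312555-11312854, plus strand: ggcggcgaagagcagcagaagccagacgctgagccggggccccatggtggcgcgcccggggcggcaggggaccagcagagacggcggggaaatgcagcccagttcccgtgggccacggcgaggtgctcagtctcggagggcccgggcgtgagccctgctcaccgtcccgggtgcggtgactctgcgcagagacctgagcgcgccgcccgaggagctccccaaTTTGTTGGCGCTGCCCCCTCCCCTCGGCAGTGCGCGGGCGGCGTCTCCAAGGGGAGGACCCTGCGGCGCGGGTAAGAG
Col4a1, chr8:11312777-11313076, minus strand: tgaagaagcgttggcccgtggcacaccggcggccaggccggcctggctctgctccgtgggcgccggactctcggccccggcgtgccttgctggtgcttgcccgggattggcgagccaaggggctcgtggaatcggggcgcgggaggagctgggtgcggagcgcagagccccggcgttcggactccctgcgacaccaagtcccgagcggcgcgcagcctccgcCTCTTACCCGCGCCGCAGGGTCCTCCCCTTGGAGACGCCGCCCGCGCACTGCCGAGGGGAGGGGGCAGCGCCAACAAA
Col23a1, chr11:51289670-51289969, plus strand: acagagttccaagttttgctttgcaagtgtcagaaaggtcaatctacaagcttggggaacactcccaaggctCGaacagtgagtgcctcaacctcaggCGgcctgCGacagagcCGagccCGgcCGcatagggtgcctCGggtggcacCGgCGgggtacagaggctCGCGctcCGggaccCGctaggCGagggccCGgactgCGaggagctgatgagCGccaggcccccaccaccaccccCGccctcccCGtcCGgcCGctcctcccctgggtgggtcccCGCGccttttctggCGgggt

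The Col23a1 window held 24 CG pairs and the Col4a2 window 33, with GC contents of 67.7% and 73.7% against a median of 52.7% over all 32841 windows. Of the 63 genes, 46 had a window in the table, 51 windows in all, with a median GC content of 60%. The GC box letters GGGCGG, read on both strands, stood in the Col23a1 and the Col4a2 window and in 64.7% of the 51 windows, against 35.7% of all windows. The letters TATAAA stood in neither of these, in 9.80% of the 51 windows and in 13.6% of all. The cyclic AMP response element TGACGTCA, a site known for the germ cell regulator CREM, stood in 1 window, that of Col24a1, against 1.79% of all windows. Such matches describe the letters of these windows.

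In the arrays labelled shSLX, 6 matrix genes rose: Bmp7, Col23a1, Dcn, Col4a2, Mgp and Col26a1. No tested matrix gene fell, and 24 did not pass the test. The rises were spread over the roles (a ligand, a proteoglycan, a mineralisation inhibitor and 3 collagens of different classes), and the 6 genes lie on 6 different autosomes. They made up 20% of the 30 tested genes, where 2.81% of the 9443 genes tested on the array changed, 2.56% upwards and 0.244% downwards. Bmp7, Dcn and Mgp were named singly in the rule, and the genes were chosen with earlier results of these data known. The shares of these genes, here and below, are therefore a description and no test. Of the 18 tested collagen genes 3 rose, and of the 4 tested laminin genes 0. The median log2 fold change of the 30 genes was 0.079, against -0.0086 over all genes tested.

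Bmp7, the secreted ligand, rose the most. Its log2 signals were 8.70 and 8.99 in the arrays labelled shSLX, 7.17, 6.87, 6.82 and 6.74 in wildtype 1 to 4, and 7.41 and 7.65 in the arrays labelled shSLY. Both shSLX arrays were above all others, and the shSLY arrays also lay above the wildtype range. Against wildtype, in effect wildtype 3 and 4, this was a rise of 2.06 ± 0.13 (log2, SE) or 4.18-fold (limma adjusted p = 1.24e-04). It passed under all 18 alternatives run on the series matrix, with log2 fold changes of 1.82 to 2.49 and adjusted p-values of 2.88e-05 to 0.0131. Several of these could not move the value, which stayed at 2.06 without wildtype 1, wildtype 2 or a shSLY array and on slide 3 alone. The replicate block and the fit without wildtype 3 and 4 gave the same value, 1.82. Bmp7 was detected in 6 of the 8 non-normalized columns, and the offset of 50 added to every signal understates the folds of genes with signals this low.

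Col23a1 encodes a collagen that spans the cell membrane and can be shed from it. The Col23a1 log2 signals were 9.49 and 10.09 in shSLX arrays, 8.17, 7.92, 7.90 and 7.92 in wildtype 1 to 4, and 8.84 and 8.75 in shSLY arrays. The 3 groups did not overlap, with shSLY between the others. The rise with shSLX was 1.88 ± 0.17, or 3.68-fold (limma adjusted p = 0.00115). It passed under all 19 alternatives run on the series matrix, with a highest adjusted p of 0.0491. The extreme log2 fold changes, 1.58 and 2.18, came from fits with a lone shSLX array. The value stayed at 1.88 by design in the same alternatives as for Bmp7. Col17a1, the other membrane-spanning collagen tested, was at -0.26 ± 0.13 (adjusted p = 0.357), and its other 2 tested probes were at -0.31 and -0.0016.

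Dcn encodes decorin, a proteoglycan that binds collagen fibrils. The Dcn log2 signals were 9.32 and 9.26 in shSLX arrays, 8.69, 7.40, 8.09 and 8.13 in wildtype 1 to 4, and 9.01 and 8.68 in shSLY arrays. The shSLX arrays were above every wildtype array, but the wildtype arrays themselves spanned 1.29, and the shSLY arrays overlapped with them. The rise with shSLX was 1.18 ± 0.12, or 2.27-fold (limma adjusted p = 0.00213). Of the 4 Dcn probes 2 were tested, and the other tested probe rose too, by 0.73 ± 0.13 (adjusted p = 0.0238). The call ended without wildtype 3 (adjusted p = 0.0639), without wildtype 4 (0.0627), and without both and no slide term (0.0524), at log2 fold changes between 1.16 and 1.25. Over all 19 alternatives on the series matrix, the adjusted p ran from 8.69e-04 to 0.0639. In the non-normalized table as headed, Dcn was at 0.016 ± 0.20 (adjusted p = 0.963). The related proteoglycan genes Bgn, at 0.37 ± 0.12 (adjusted p = 0.160), and Lum, at 0.24 ± 0.11 (adjusted p = 0.308), did not pass the test.

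Col4a2 encodes the alpha 2 chain of basement membrane collagen. The Col4a2 log2 signals were 7.52 and 8.01 in shSLX arrays, 6.87, 6.65, 6.80 and 6.60 in wildtype 1 to 4, and 7.28 and 7.18 in shSLY arrays. Each group stood apart from the others, with shSLX highest. The rise with shSLX was 1.07 ± 0.16, or 2.10-fold (limma adjusted p = 0.0106). Without wildtype 3 or wildtype 4 the call ended (adjusted p = 0.116 and 0.193, log2 fold changes of 1.17 and 0.97), and it held in the other 16 alternatives on the series matrix, where the lowest adjusted p was 7.26e-04. Col4a1, the partner gene that shares the start region shown above, was detected in no column.

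Mgp encodes matrix Gla protein, an inhibitor of tissue calcification. The Mgp log2 signals were 7.16 and 7.17 in shSLX arrays, 6.67, 6.44, 6.42 and 6.44 in wildtype 1 to 4, and 6.83 and 7.07 in shSLY arrays. The arrays labelled shSLX and those labelled shSLY all lay above every wildtype array. The rise with shSLX was 0.73 ± 0.11, or 1.66-fold (limma adjusted p = 0.0114), and its call ended without wildtype 3 or 4 (adjusted p = 0.176 and 0.154, log2 fold changes of 0.72 and 0.74). It held in the other 16 alternatives on the series matrix, where the lowest adjusted p was 0.00485. Among the other tested glycoprotein genes, Sparc was at 0.28 ± 0.16 (adjusted p = 0.413) and Fbln1 at 0.14 ± 0.12 (adjusted p = 0.594).

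Col26a1, a collagen gene known for expression in the testis and ovary, rose against the wildtype arrays of its own slide and not against the others. The Col26a1 log2 signals were 8.52 and 8.51 in shSLX arrays, 8.81, 8.75, 7.89 and 7.95 in wildtype 1 to 4, and 8.55 and 8.55 in shSLY arrays. The shSLX arrays lay between the wildtype arrays of slide 3 and those of slides 1 and 2. With the slide term the rise was 0.60 ± 0.10, or 1.51-fold (limma adjusted p = 0.0141). With no slide term it was 0.17 (adjusted p = 0.769), and with wildtype 3 and 4 left out it turned to -0.26 (adjusted p = 0.0918). Without wildtype 3 alone or wildtype 4 alone the call also ended (0.57 and 0.63, adjusted p = 0.203 and 0.151), and over 19 alternatives on the series matrix the adjusted p ran from 0.0066 to 0.769.

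**Figure D2:**
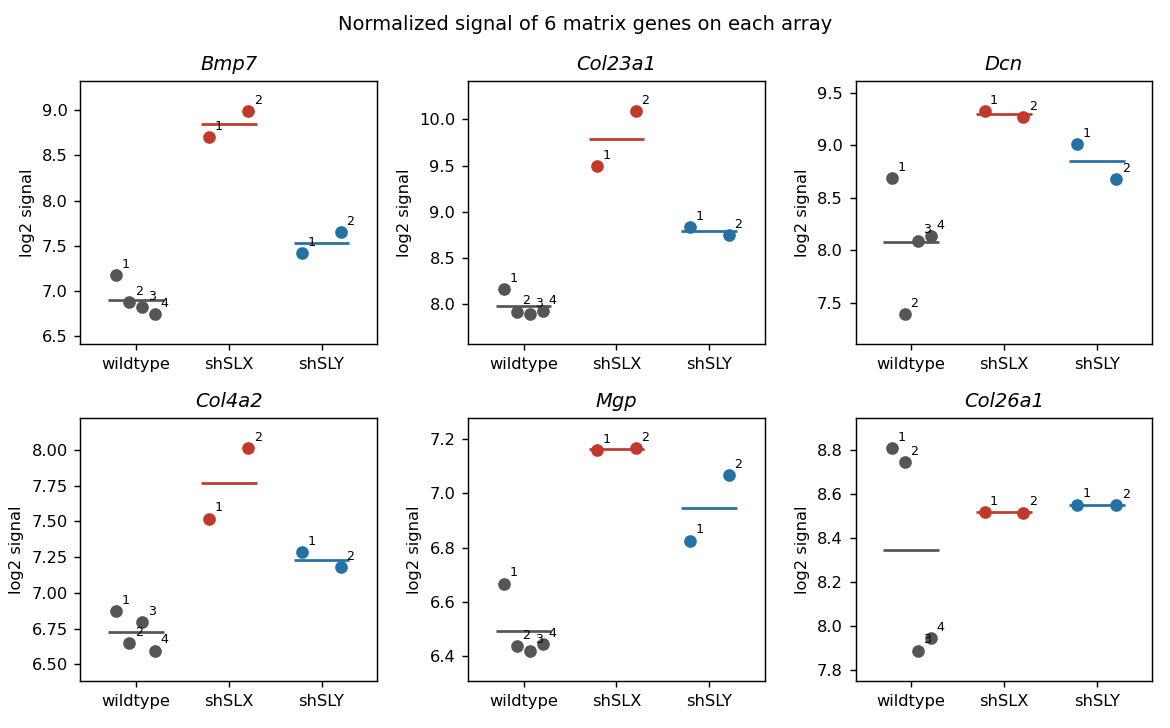
Normalized log2 signal on each array for the 6 matrix genes that rose in the arrays labelled shSLX; points are arrays with their replicate number, horizontal lines are group means, and the vertical axes start above 0 and differ between genes. For Bmp7 both shSLX arrays (8.70 and 8.99) lie above every other array, while for Col26a1 they lie between the 2 pairs of wildtype arrays.

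Among the tested genes that did not pass in the arrays labelled shSLX, Col27a1, a fibrillar collagen gene of cartilage, came nearest. Its log2 signals were 7.08 and 7.42 in shSLX arrays, 7.08, 6.82, 6.61 and 6.82 in wildtype 1 to 4, and 7.33 and 7.29 in shSLY arrays. The difference with shSLX was 0.54 ± 0.13 (limma adjusted p = 0.0879), and it was 0.71 without shSLX 1 (adjusted p = 0.0135) and 0.37 without shSLX 2 (adjusted p = 0.0674). In each fit that leaves out a shSLX array, the lone array left is assumed to vary like the other groups. Col2a1, the main fibrillar collagen gene of cartilage, lay lowest among the 30 at -0.30 ± 0.17 (adjusted p = 0.394). Its log2 signals were 8.66 and 9.23 in shSLX arrays, against 9.28 and 9.21 in wildtype 3 and 4 and 9.76 and 10.03 in wildtype 1 and 2. All 3 Col2a1 probes lay below 0 (-0.30, -0.24 and -0.32), none past the threshold. For the probe used, the value was -0.58 without shSLX 2 (adjusted p = 0.00889) and -0.015 without shSLX 1 (adjusted p = 0.951), so the lower value rested on shSLX 1. The 4 laminin genes lay between 0.053 and 0.15, and the 5 fibril-associated collagen genes between -0.23 and 0.075.

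Counted without a model, both shSLX arrays lay above all 4 wildtype arrays for 8 of the 30 genes (26.7%), against 12.6% of all genes tested. These were Bmp7, Col23a1, Dcn, Col4a2, Mgp, Col27a1, Bgn and Lum. Both lay below all wildtype arrays for 3 genes (10%), Col16a1, Col17a1 and Col18a1, against 13.2% of all genes.

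**Figure D3:**
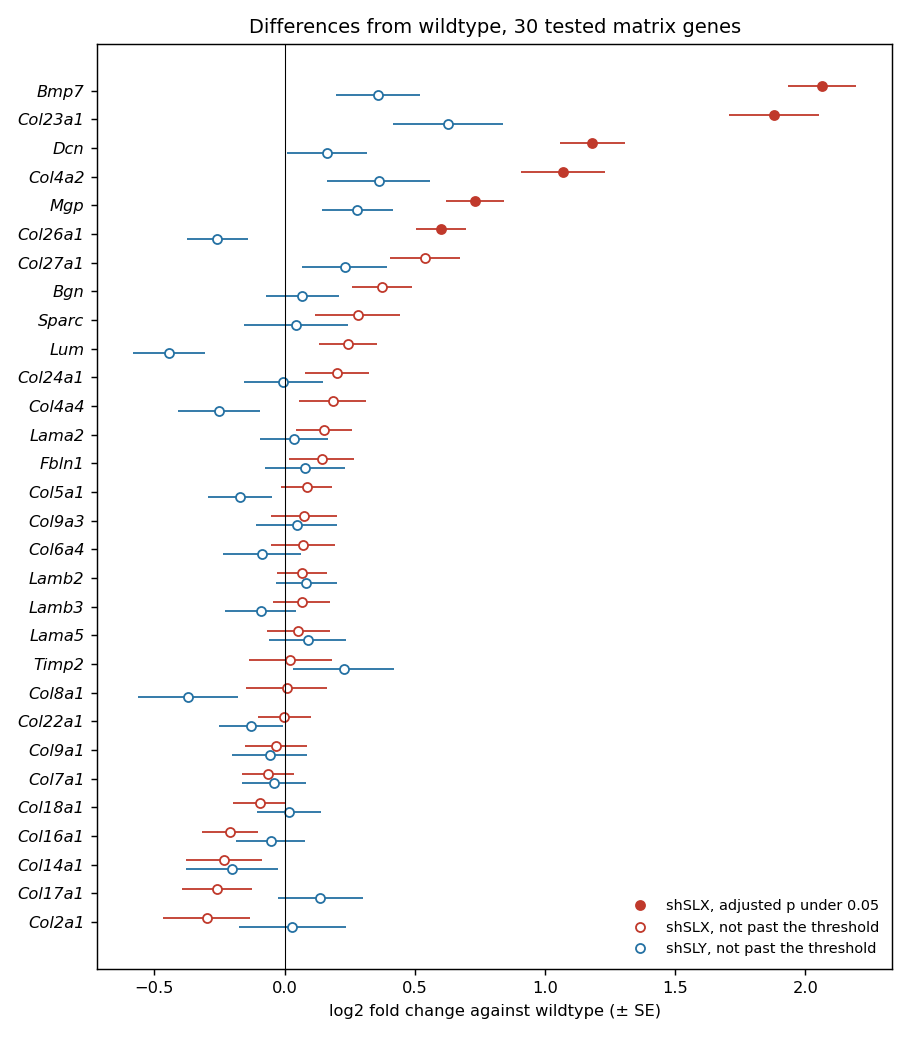
Log2 fold change against wildtype (horizontal axis, ± SE from limma) of the 30 tested matrix genes in the arrays labelled shSLX (red) and shSLY (blue); filled points have an adjusted p under 0.05. The 6 filled points, from Col26a1 at 0.60 to Bmp7 at 2.06, are all of shSLX, and no shSLY value is filled.

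In the arrays labelled shSLY, none of the 30 tested matrix genes passed limma's test, where 0.657% of all genes tested did and 0.487% rose. Unadjusted p-values under 0.05 were found for 2 genes, Col23a1 and Lum, or 6.67% of the 30, against 9.7% of all genes. The log2 fold changes ran from -0.44 to 0.63 with a median of 0.033, against -0.012 over all genes tested. With the slide term these arrays were in effect set against wildtype 1 alone, which limits the precision.

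Col23a1 had the highest value, 0.63 ± 0.21 (limma adjusted p = 0.340), with a 95% interval of 0.15 to 1.11. Dropping the slide term gave 0.82 (adjusted p = 0.0172) and a random block for slide gave 0.76 (adjusted p = 0.0384), both past the threshold. On slide 2 alone, without shSLX 1 or without shSLX 2, the value stayed at 0.63 by design, as it rests on wildtype 1 and the shSLY arrays. Those fits leave out the spread between the shSLX arrays, with an SE of 0.11 or 0.10 in place of 0.21. They are thus no separate test of the shSLY value. Both shSLY arrays were above wildtype 1 on their own slide, by 0.67 and 0.58. Bmp7 was at 0.36 ± 0.16 (adjusted p = 0.572, 95% interval -0.0067 to 0.73) and passed with no slide term (0.63, adjusted p = 0.0377). Dcn was at 0.16 ± 0.15 (adjusted p = 0.883), Col4a2 at 0.36 ± 0.20 (0.691), Mgp at 0.28 ± 0.14 (0.624), Col27a1 at 0.23 ± 0.16 (0.810) and Col26a1 at -0.26 ± 0.12 (0.580).

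Lum, which encodes lumican, a proteoglycan of collagen fibrils, lay lowest in the arrays labelled shSLY. Its log2 signals were 6.76 and 6.98 in shSLY arrays, 7.31, 7.19, 7.39 and 7.42 in wildtype 1 to 4, and 7.70 and 7.60 in shSLX arrays. The 3 groups did not overlap, with the shSLX arrays above wildtype and the shSLY arrays below. The difference with shSLY was -0.44 ± 0.14 (limma adjusted p = 0.278) and passed with no slide term (-0.46, adjusted p = 0.0433). The other Lum probe was at -0.29 (adjusted p = 0.744). Col8a1, a collagen gene of vessel walls and the eye, was at -0.37 ± 0.19 (adjusted p = 0.664), Col4a4 at -0.25 ± 0.16 (0.758) and Timp2, a metalloproteinase inhibitor gene, at 0.23 ± 0.19 (0.868).

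Both shSLY arrays lay above all 4 wildtype arrays for 8 of the 30 genes (26.7%), against 16.7% of all genes tested, and below them for 3 (10%), against 19.6%. The 8 were Bmp7, Col23a1, Col4a2, Mgp, Col27a1, Lama5, Lamb2 and Timp2. The shSLX and shSLY comparisons share the wildtype arrays.

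The effects of the 2 constructs were then set against each other in the same fit. The shSLX effect was higher for 3 matrix genes, Bmp7, Dcn and Col26a1 (10% of the 30, where 1.94% of all genes tested differed and 1.36% were higher), and lower for none. For Bmp7 the difference was 1.70 ± 0.21 (limma adjusted p = 0.0101), for Dcn 1.02 ± 0.20 (0.0420) and for Col26a1 0.86 ± 0.15 (0.0313). For Bmp7 the adjusted p was 0.117 without wildtype 3, 0.121 without wildtype 4 and 0.05003 without shSLY 1, and the difference was then 1.74, 1.67 and 1.58. The Dcn and Col26a1 calls ended without each of wildtype 3, wildtype 4, shSLY 1 and shSLY 2 (adjusted p from 0.0789 to 0.238). With no slide term, Dcn was at 0.45 (adjusted p = 0.346) and Col26a1 turned to -0.033 (0.948). The other tested Dcn probe was at 0.67 ± 0.21 (adjusted p = 0.180), and the mean of the detected Dcn probes at 0.84 (0.0842). The Dcn difference passed in 7 of 17 alternatives on the series matrix, those with a lone shSLX array among them.

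Col23a1 differed by 1.26 ± 0.27, just outside the threshold (limma adjusted p = 0.0628), with a 95% interval of 0.64 to 1.88. It passed with no slide term (adjusted p = 0.00720), without shSLX 1 (1.55, adjusted p = 0.00117) and without shSLX 2 (0.96, adjusted p = 0.00737). The last 2 fits hold a lone shSLX array and so leave out the spread between the shSLX arrays, with an SE of 0.145 in place of 0.27. Lum differed by 0.69 ± 0.18 (adjusted p = 0.109), and passed with no slide term (0.78, adjusted p = 0.00395). The Lum difference was 0.74 without shSLX 2 and 0.64 without shSLX 1, each with a lone shSLX array. On the other tested Lum probe the difference was 0.44 ± 0.22 (adjusted p = 0.439). Col4a2 was at 0.71 ± 0.25 (0.252) and was 0.96 without shSLX 1 (adjusted p = 0.0149) and 0.46 without shSLX 2 (adjusted p = 0.119), each with a lone shSLX array. Mgp was at 0.45 ± 0.18 (0.299), Col4a4 at 0.44 ± 0.20 (0.390), Col17a1 at -0.40 ± 0.21 (0.465) and Col8a1 at 0.38 ± 0.25 (0.559). For Col23a1, Col4a2 and Mgp, which passed in shSLX and not in shSLY, a difference between the 2 was thus not shown in the fit over all arrays with the slide term.

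Several matrix genes differed between the wildtype arrays themselves, with wildtype 1 and 2 apart from wildtype 3 and 4. By label wildtype 1 and 2 are on different slides, and wildtype 3 and 4 share a slide and matched no non-normalized column. Slide and other differences between these pairs cannot be told apart. Wildtype 1 and 2 both lay above wildtype 3 and 4 for 17 of the 30 genes (56.7%), against 35.9% of all genes tested. The mean gap was 0.86 for Col26a1, 0.65 for Col2a1 and 0.61 for Timp2. Col5a1, a regulator of fibril diameter, and Col16a1, a fibril-associated collagen gene, were chosen after their values were seen, with gaps of 0.72 and 0.65. For Col5a1 the shSLX arrays (8.88 and 8.95) lay close to wildtype 3 and 4 (8.78 and 8.88) and the shSLY arrays (9.58 and 9.55) near wildtype 1 and 2 (9.74 and 9.36). Its log2 fold changes with the slide term were 0.084 ± 0.099 and -0.17 ± 0.12 (adjusted p = 0.700 and 0.807).

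**Figure D4:**
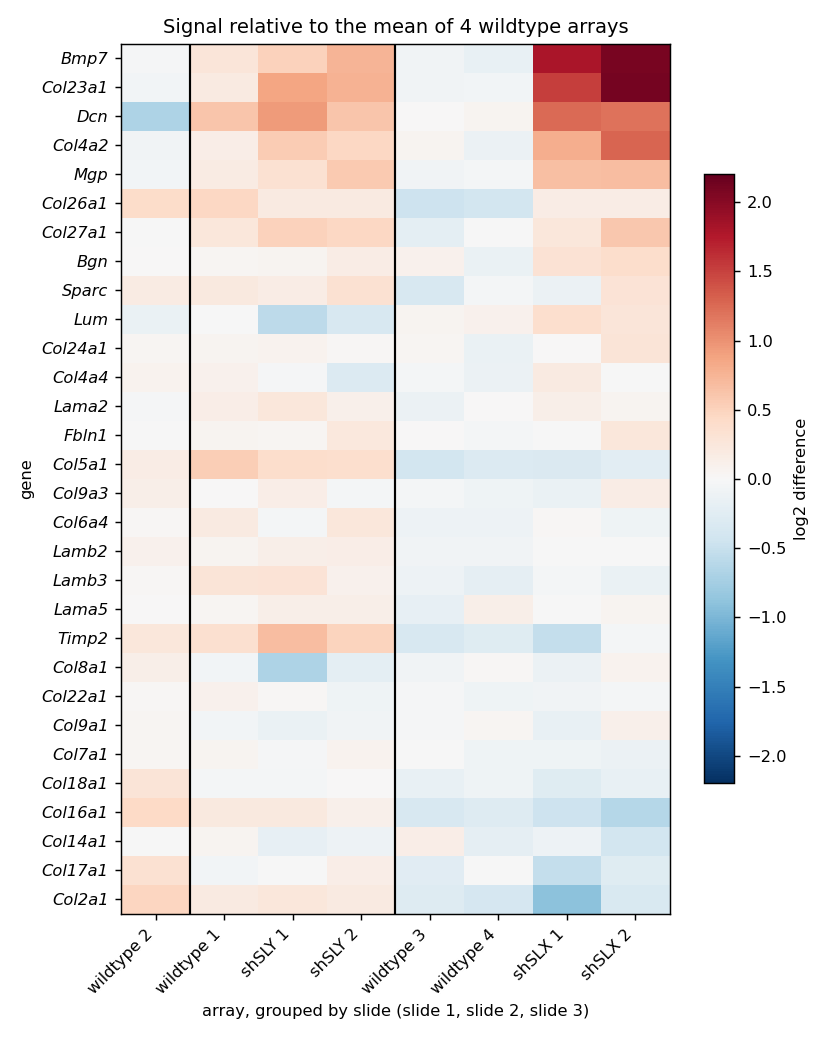
Log2 signal of the 30 tested matrix genes on each array minus the mean of the 4 wildtype arrays, with arrays grouped by slide (black lines) and genes ordered by their shSLX effect. Bmp7, Col23a1, Dcn, Col4a2 and Mgp are high on both shSLX arrays, and Col26a1, Col5a1, Col2a1 and Col16a1 are lower on wildtype 3 and 4 than on wildtype 1 and 2.

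The non-normalized table gave the same high pair of profiles under another name. Its column headed shSLY 1 held the ranks of series matrix shSLX 1, and that headed shSLY 2 those of shSLX 2. The Bmp7 intensity was 404 and 374 in these columns, 162 and 119 in those headed wildtype 1 and 2, 182 and 210 in those headed wildtype 3 and 4, and 95.3 and 93.8 in those headed shSLX, where Bmp7 was not detected. Col23a1 was likewise highest in the columns headed shSLY, at 684 and 767, and lowest in those headed shSLX, at 229 and 243. Fitted under these headers, Bmp7 was higher in shSLY (2.09, limma adjusted p = 0.0430) and lower in shSLX (-1.81, adjusted p = 0.00675). The high Bmp7 and Col23a1 values thus stand in both tables, on the pair called shSLX by accession and shSLY by header.

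**Figure D5:**
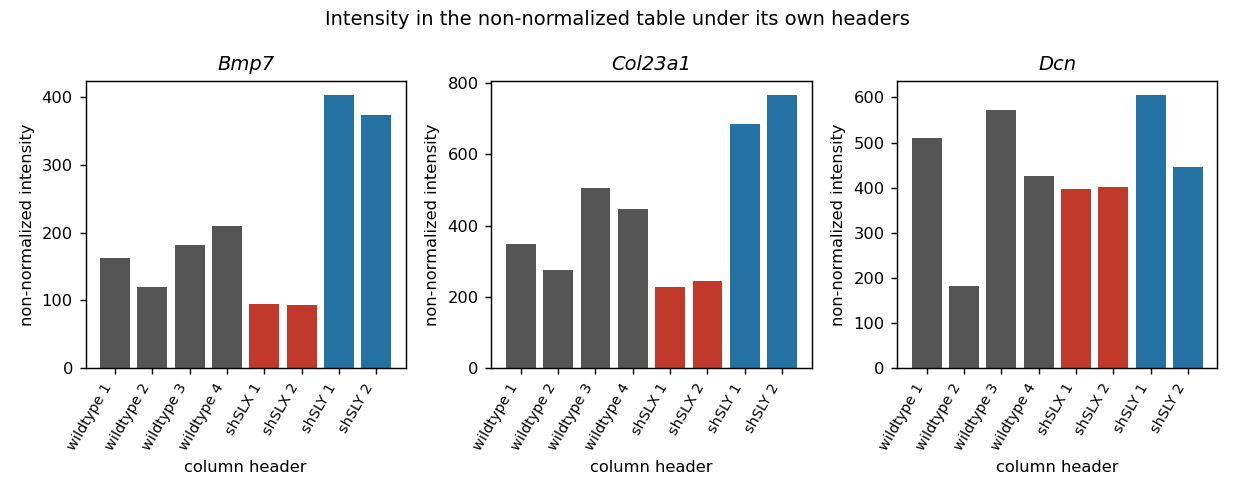
Non-normalized intensity (linear scale, from 0) of Bmp7, Col23a1 and Dcn in its 8 columns, as that table names them and coloured by named group. For Bmp7 and Col23a1 the columns headed shSLY are the highest and those headed shSLX the lowest, and for Dcn the lowest is wildtype 2, at 182.

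Beside these genes, 5 lists of the wider matrix machinery were counted, against 2.81% of all genes called with shSLX and 0.657% with shSLY. In the arrays labelled shSLX, no gene rose or fell among 13 tested genes of collagen processing (median log2 fold change 0.025), 4 of matrix proteases and their inhibitors (-0.019) or 5 matrix receptors (0.19). Of 8 other matrix protein genes, 1 rose, the thrombospondin gene Thbs2, with log2 signals of 7.26 and 7.29 in shSLX arrays, 6.01 to 6.27 in wildtype and 6.28 and 6.09 in shSLY arrays. The fitted value was 1.13 ± 0.12 (limma adjusted p = 0.00229). Thbs2 entered the test through 2 columns alone, those that hold the shSLX profiles, so it had to differ and its call supports nothing. The enzyme gene Lox, which crosslinks collagen, and 19 of 24 matrix receptor genes, Itgb1 and Cd44 among them, were detected in no column.

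Of 9 tested genes of the BMP pathway other than Bmp7, none passed in either comparison, a count that the shares over all genes would also give. The median was -0.074 with shSLX. Id1, Id2 and Id3, which BMP signals are known to induce, were detected in no column, nor were Nog, Chrd and Grem1, which encode BMP antagonists. In the arrays labelled shSLY, no gene of these 5 lists passed limma's test.

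Some markers of other cells also passed in the arrays labelled shSLX, where 2.56% of all genes tested rose. Of 5 tested genes of peritubular myoid and smooth muscle cells, Acta2 (0.82 ± 0.12, limma adjusted p = 0.00778) and Myh11 (0.78 ± 0.11, adjusted p = 0.00933) passed as higher. Actg2 (0.31, adjusted p = 0.197), Mylk (0.13, 0.689) and Myl9 (-0.093, 0.729) did not pass, while Tagln, Cnn1, Des, Tpm2 and Lmod1 were detected in no column. Myh11 was detected in the 2 columns of the shSLX profiles alone, so like Thbs2 it had to differ. The summed signal of that list was 6591 to 8310 in wildtype, 8366 to 8485 in shSLX and 7834 to 8801 in shSLY arrays. Actg2 alone made 5801 to 7486, 7454 to 7556 and 6967 to 7877 of these sums, so they mostly read that 1 gene. None of 7 fibroblast genes on the array was tested, and Pdgfra, Pdgfrb and Tcf21 were detected in no column. Of 4 tested endothelial genes, Vwf rose (0.82 ± 0.16, adjusted p = 0.0365), while Egfl7 (0.45), Tek (2.5e-05) and Cldn5 (-0.039) did not pass. The endothelial list summed to 923 to 941 in wildtype, 1025 to 1219 in shSLX and 936 to 940 in shSLY arrays, with Cdh5, Kdr and Tie1 in no column.

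Of 7 tested genes on the list fixed for macrophages, the lysozyme genes Lyz1 and Lyz2 and C1qc passed as higher with shSLX, against wildtype 3 and 4. Lyz1 was at 9.03 and 8.68 in shSLX arrays, 7.57 and 7.66 in wildtype 3 and 4, but 9.21 in wildtype 1. Both shSLX arrays for C1qc (6.72 and 6.52 against 6.88) and shSLX 2 for Lyz2 (7.38 against 7.81) also lay below wildtype 1. Adgre1 (-0.051), Csf1r (0.28), C1qb (0.35) and Mrc1 (0.22) did not pass. The macrophage list summed to 954 to 1743 in wildtype, 1320 to 1568 in shSLX and 1624 to 1801 in shSLY arrays. The epididymal gene Defb21 rose by 1.64 ± 0.10 (limma adjusted p = 8.6e-05), while Lcn5, Lcn8, Lcn9, Rnase9, Rnase10 and Defb25 were in no column. Cst11, the other epididymal gene tested, was at 0.043 ± 0.097 (adjusted p = 0.848). That list summed to 799 to 887 in wildtype, 1233 to 1296 in shSLX and 801 to 810 in shSLY arrays, of which Defb21 alone made 210 to 291, 651 to 684 and 207. Of 4 tested spermatogonial genes, Sohlh1 rose (0.73 ± 0.11, adjusted p = 0.0121), while Kit, Uchl1 and Sall4, at 0.076 to 0.31, did not pass. That list summed to 789 to 1015, 977 to 998 and 986 to 1054. None of 6 Sertoli, 1 Leydig, 2 blood, 5 spermatocyte and 14 round spermatid genes passed with shSLX, nor did any marker gene with shSLY. The blood list varied the most, with sums of 391 to 1681 in wildtype, 432 to 549 in shSLX and 1720 to 2627 in shSLY arrays. The Sertoli list summed to 1253 to 1747, 1234 to 1271 and 1683 to 1784 in the same order. The spermatocyte list summed to 6127 to 7228, 5941 to 8272 and 5690 to 5776. Of its 5 tested genes, 3 lay above 0 with shSLX. Its gene Spo11 was at 11.77 in shSLX 1 and 10.31 in shSLX 2, against 10.19 to 10.68 in wildtype arrays. The part of these cells in the matrix gene rises was not tested.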

How the data were processed

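Round spermatid RNA of 8 samples was hybridised to Illumina arrays, 1 array a sample, and precision is limited by how few arrays there are. The authors deposited non-normalized probe intensity with a detection p-value per array, per the file headers, and a series matrix of normalized intensity on a linear scale for the same 45281 probes. The deposited matrix minimum of 46.4 was the same on all 8 arrays, and no source used here gives its normalization method. The submitters' processing notes list BeadStudio and GenomeStudio, with no versions.

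Series matrix values were background-corrected (limma normexp, offset 50), quantile-normalized and converted to log2. All 16572 detected probes were fitted with group and slide over 8 arrays (lmFit and eBayes, limma 3.58.1, R 4.3.3), with 3 residual and 5.69 prior degrees of freedom. Adjusted p-values are from limma with the Benjamini-Hochberg method across these probes (threshold 0.05). The fit was tested on simulated data. Probe symbols came from the platform annotation (34885 probes with 1 symbol, 18 with several, 10378 with none). All 63 genes matched the GRCm38.p6 gene table. Genes are named where they passed in any contrast or were among the 10 largest differences of a contrast. From each pathway list at most 3 genes past the threshold are named. The members and lists were chosen with earlier results of these data known. Where replicate numbers are shared, deviations of same-numbered arrays correlated at 0.050, 0.138 and -0.063, so the numbers were not taken as pairs.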

Additional observations from a re-analysis of the deposited data

Results flagged for a closer look

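The difference between the shSLX and shSLY effects passed limma's test for 3 matrix genes: Bmp7 (1.70, adjusted p = 0.0101), Dcn (1.02, adjusted p = 0.0420) and Col26a1 (0.86, adjusted p = 0.0313). In the wildtype group of 4 arrays, 1 array stood far from the others for 3 of the 30 genes, where chance alone marks about 1 in 20 groups. Wildtype 1 was high for Col23a1 (8.17, with a gap of 0.903 of the group's range) and for Mgp (6.67, gap 0.907). Wildtype 4 was low for Col24a1 (6.30, gap 0.912).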

How the results depend on the processing

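The count of 6 matrix genes called with shSLX was 3 with probes detected in all 8 columns (15 genes tested), 10 in the non-normalized table as headed (2 higher, 8 lower) and 2 to 7 with 1 array left out. Bmp7 and Col23a1 were the 2 left without wildtype 3 or without wildtype 4. The count of 0 with shSLY was 3 with no slide term and 1 each with the slide as a random block, on its own slide and in that table, and 0 to 1 with 1 array left out. The count of 3 for the difference was 1 with offset 16 and 1 (lower) in that table. It was 9 with the replicate block (4 higher, 5 lower) and 8 with wildtype 3 and 4 left out and no slide term (4 higher, 4 lower), an alternative chosen after seeing the data. Of the 3 genes, Bmp7 alone was shared with each, and the lower calls were Col16a1, Col2a1, Col5a1 and Timp2 in both and Col17a1 with the block. The count was 0 to 6 with 1 array left out. The replicate block, fitted without the slide, gave 9 calls for shSLX (5 higher, 4 lower) and 0 for shSLY.

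In the non-normalized table as headed, the shSLX effect turned for Bmp7 (-1.81), Col23a1 (-0.86), Col26a1 (-0.57), Col27a1 (-0.88), Col4a2 (-0.89) and Mgp (-0.34), and the difference for Bmp7 (-3.90), Col26a1 (-0.24) and Dcn (-0.65). The Dcn rise was not seen there (0.016, adjusted p = 0.963). That table names other profiles by these labels. Col26a1 also turned with the replicate block and with wildtype 3 and 4 left out (-0.26 in both for shSLX, -0.033 in both for the difference) and, for the difference, with no slide term (-0.033). The cause was not tested. The shSLY effect and the difference could not be fitted without wildtype 1, the 1 wildtype array on the shSLY slide. Values near background limit Bmp7, Mgp and Col4a2, each undetected in at least 1 column. For Mgp this was wildtype 2. For Bmp7 and Col4a2 it was in columns headed shSLX alone, which matched no array of the fit.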
